A study of Mus musculus with 20 samples.

Results

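Cell cycle and DNA replication genes were followed through small intestine of young mice as a list of 42 genes named by symbol. The rule names genes by function and uses no measured value, but the list was chosen with earlier results of these data known. In all, 42 of 42 genes were found in the deposited table of 55487 gene lines and passed the filter on low counts, which left 17464 genes. Small intestine was taken from pups, its polyA RNA was sequenced in bulk, and 20 libraries fell into 4 groups of 5. The groups were pups of dams with periodontitis (inflammatory disease of the gums and tooth sockets) at 7 weeks of age, pups of control dams at 7 weeks, pups of dams with periodontitis at 2 weeks and pups of control dams at 2 weeks. They are called periodontitis pups and control pups here. The condition was that of the dam, and the labels name neither the strain nor the segment, and give no sex, litter or batch, so whether the pups of a group were littermates is not known and p-values measure only the spread between these samples. The study asked how gene expression in the offspring differs between the 2 kinds of dam. The tissue label was checked by 6 enterocyte markers, which summed to 42800 to 123000 and 71900 to 124000 CPM (counts scaled to a common library size) in periodontitis and control pups at 7 weeks, and to 39400 to 56200 and 29100 to 44500 CPM in periodontitis and control pups at 2 weeks.

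A dividing cell first loads the ring-shaped MCM helicase onto replication origins with the loading factors Cdc6 and Cdt1, which is called licensing. D-type and E-type cyclins with their kinases then carry it from the G1 phase into S phase, where DNA is copied on the sliding clamp Pcna. Cyclins A and B with Cdk1 drive mitosis, in which motor and checkpoint proteins sort the chromosomes. E2F factors switch on many S-phase genes, and Mybl2 and Foxm1 act on mitotic genes. In the intestine division takes place in the crypts, whose stem cells and transit-amplifying cells replace the non-dividing enterocytes of the villi. Crypts form and multiply in the weeks after birth in mice, and the epithelium changes to its adult form around weaning. The libraries are of whole tissue, so fewer cells of a type and less RNA per cell cannot be told apart in any result below.

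Promoters are shown for the short sequence motifs that lie upstream of the starts of many genes of the list. RefSeq promoters (build GRCm38.p6) were matched for 33 of the 42 genes. The 9 without were Mcm4, Ccnd1, Ccnd2, Ccne2, Ccna2, Wee1, Aurkb, Tpx2 and Foxm1. They include Ccne2 and Wee1, the only genes of the list called higher with age below, so motifs could not be set against direction. For 28 of the 33 the bases after the start lie in a GENCODE M21 transcript of the gene, and for Mcm5, Mcm6, Mybl2, Aurka and Kif11 they do not. The letters searched on both strands were TTCCCGC and TTGGCGC (found in E2F sites), TTTGAA (the cell cycle homology region of mitotic genes) and CCAAT (the NF-Y box). In the 250 bases before the start, an E2F sequence lay in 10 of the 33 promoters (30.3%), against 9.59% of 12547 promoters of tested genes. TTTGAA lay in 9 (27.3%, against 11.3%) and CCAAT in 25 (75.8%, against 36%). TTTGAA and CCAAT stood together in 9 (27.3%, against 4.34%). E2F sequences were found in 4 of 8 licensing genes and in 0 of 7 mitotic regulators. CCAAT lay in 6 of 8 and 6 of 7 of them. E2F sequences also lay in 2 of 3 genes of the G2/M kinases and in 1 of 4 DNA synthesis genes, so they did not divide replication from mitosis. The 130 bases before the start of 6 genes follow, 5′ to 3′ on the strand of the gene, with each motif on either strand in capitals. The start of Mcm6 is one of those outside the GENCODE transcripts. The windows show E2F letters with CCAAT in Mcm6 and Rrm1, TTTGAA with E2F letters in Mki67 and TTTGAA with repeated CCAAT in Top2a. They show repeated CCAAT in Ccnb2 and all 3 kinds of motif in E2f8. Over the 250 bases Mki67 held CCAAT too, and Ccnb2 held TTTGAA.
Mcm6 (chr1:128359706-128359835, minus strand): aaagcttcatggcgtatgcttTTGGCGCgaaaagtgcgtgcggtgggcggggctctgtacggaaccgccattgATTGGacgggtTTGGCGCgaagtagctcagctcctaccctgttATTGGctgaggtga
Rrm1 (chr7:102441565-102441694, plus strand): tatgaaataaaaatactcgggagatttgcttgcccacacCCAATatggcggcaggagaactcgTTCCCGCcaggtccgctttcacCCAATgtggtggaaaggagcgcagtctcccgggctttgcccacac
Ccnb2 (chr9:70421555-70421684, minus strand): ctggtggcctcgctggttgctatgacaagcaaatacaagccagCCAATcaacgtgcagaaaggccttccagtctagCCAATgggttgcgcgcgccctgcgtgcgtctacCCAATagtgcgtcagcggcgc
Top2a (chr11:99024190-99024319, minus strand): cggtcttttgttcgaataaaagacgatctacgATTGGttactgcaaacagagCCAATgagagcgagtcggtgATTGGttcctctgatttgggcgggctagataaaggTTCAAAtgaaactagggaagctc
Mki67 (chr7:135716380-135716509, minus strand): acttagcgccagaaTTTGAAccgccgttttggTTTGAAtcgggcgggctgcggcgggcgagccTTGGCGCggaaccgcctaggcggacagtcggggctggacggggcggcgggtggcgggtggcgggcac
E2f8 (chr7:48881597-48881726, minus strand): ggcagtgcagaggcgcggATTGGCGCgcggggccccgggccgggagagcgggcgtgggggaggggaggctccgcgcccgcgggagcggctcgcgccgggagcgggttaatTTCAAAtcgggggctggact
In E2f8 the capitals run together because TTGGCGC overlaps CCAAT read on the other strand (ATTGG), and TTTGAA on the other strand reads TTCAAA. The matches are a description of these letters, and whether any factor binds there was not tested.

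Depth was 14900000 to 42600000 counts per library, and the 42 genes together held 0.0296 to 0.108% of the counts at 7 weeks and 0.13 to 0.177% at 2 weeks. Levels are given as CPM scaled by the trimmed mean of M values (TMM), or as CPM per kb of exon where genes are compared with each other. Per kb, Pcna stood highest in each group, with 41.8 ± 5.47 and 39.6 ± 3.75 CPM per kb in periodontitis and control pups at 7 weeks and 38.8 ± 5.65 and 54.6 ± 20.3 CPM per kb in periodontitis and control pups at 2 weeks (SD, n = 5 each). Ccne2 followed in control pups at 7 weeks with 9.55 ± 3.7 CPM per kb, and Ccnb2 followed in control pups at 2 weeks with 15.8 ± 1.12 CPM per kb (SD, n = 5 each). Cdc6 and Cenpf were the lowest in control pups at either age, between 0.347 and 0.923 CPM per kb. In periodontitis pups licensing genes followed, Cdt1 at 7 weeks with 6.05 ± 1.46 CPM per kb and Mcm6 at 2 weeks with 14.8 ± 1.57 CPM per kb (SD, n = 5 each).

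Some libraries stood apart, and the main counts and medians they enter are also given without them. Periodontitis library 5 at 7 weeks was the highest of its group for 37 of the 42 genes, above every 7-week control library for 39 and inside the range of the 10 2-week libraries for 32. The mean over the 42 genes of its log2 CPM was 4.27, against 2.53 to 2.89 in periodontitis libraries 1 to 4, 2.71 to 3.66 in 7-week controls and 4.1 to 4.58 in the 2-week libraries. Its 6 enterocyte markers summed to 42800 CPM, against 104000 to 123000 CPM in libraries 1 to 4. Its endothelial markers (157 CPM, against 35.5 to 44.5 CPM in libraries 1 to 4) and Paneth cell markers (1930 CPM, against 366 to 660 CPM) were also apart from its group. Its adipocyte markers summed to 0.202 CPM, where libraries 1 to 4 had 12.8 to 50.8 CPM and the 7-week control and 2-week libraries at most 7.15 CPM. Some other marker lists of periodontitis library 5 lay outside the range of the 2-week libraries. Its pancreas markers summed to 5.5 CPM, where each 2-week library had at least 123 CPM, and its enteric neuron and glia markers to 15.1 CPM, where each 2-week library had at least 41.7 CPM. Its fibroblast markers summed to 461 CPM, where each 2-week library had at least 1160 CPM, and its tuft cell markers to 34.4 CPM, where the 2-week libraries had at most 18.4 CPM. The fibroblast and the enteric neuron and glia sums were still above those of every other 7-week library, at most 396 and 13.9 CPM. Germinal centre B cell markers summed to 38.5 CPM, against at least 59 CPM in libraries 1 to 4 and at most 26.1 CPM at 2 weeks. What sets the library apart was not tested. Over 10739 genes that changed with age in control pups, this library lay nearer the 7-week than the 2-week control mean for 59.4%. Periodontitis libraries 1 to 4 did so for 84.6 to 96.7%. The 7-week control libraries, which themselves make that mean, did so for 88.1 to 98.5%. Among the 39 changed genes of the list, periodontitis library 5 did so for 1. Control library 3 at 7 weeks was the highest of its group for 34 genes, with enterocyte markers of 71900 CPM. It lay nearer the 7-week mean, which it enters, for 22 of the 39. Control library 5 at 2 weeks, the shallowest of all, was above the other 4 controls of its age for 20 genes and below them for 19. The heat map shows these columns against the general change with age.

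**Figure D1:**
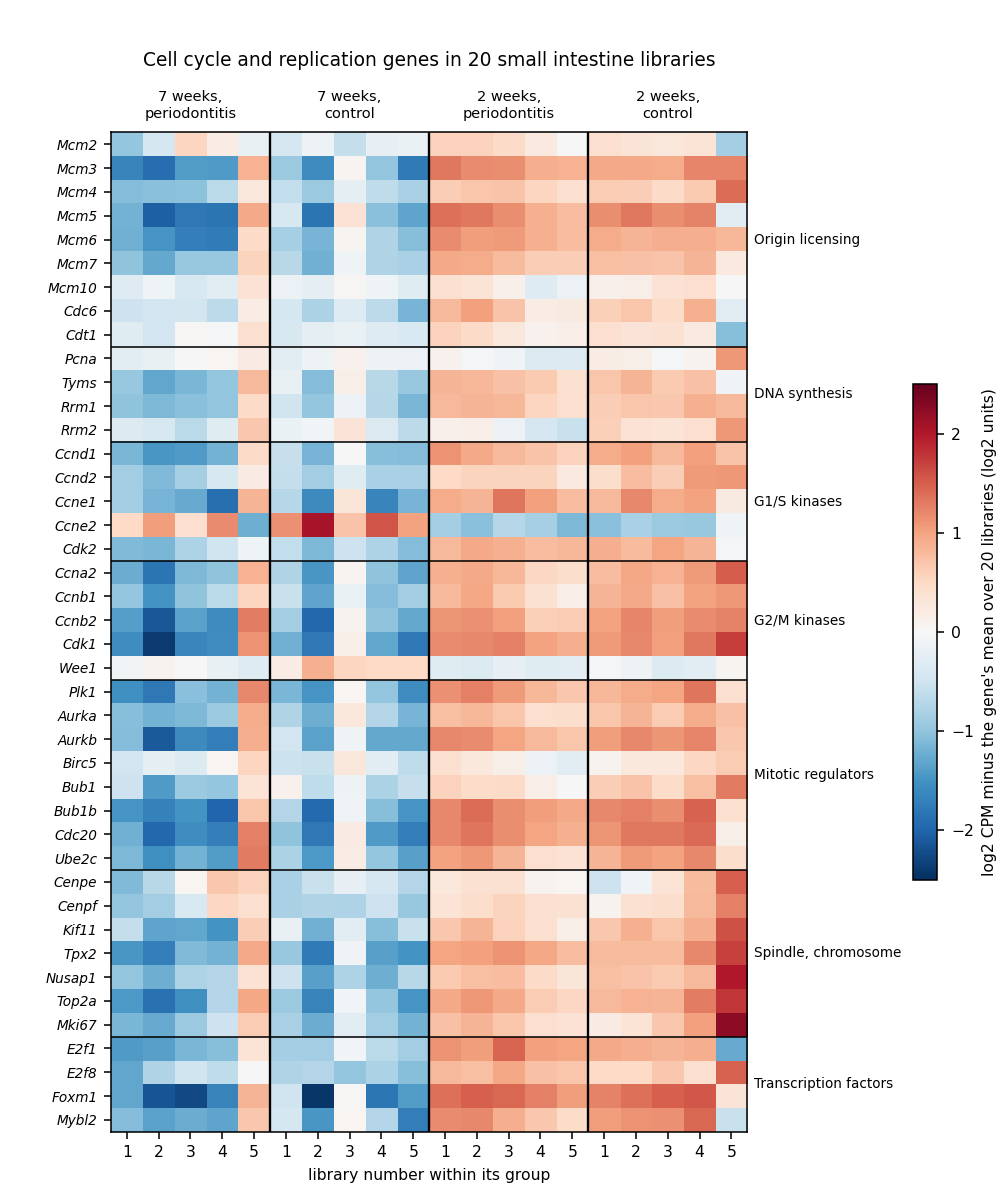
Each row is 1 of the 42 genes, ordered by role, and each column 1 of the 20 libraries. Colour is log2 CPM minus the mean of the gene over 20 libraries. The 2-week columns are mostly red and the 7-week columns mostly blue, except Ccne2 and Wee1. Periodontitis library 5 at 7 weeks looks like a 2-week column, and control library 5 at 2 weeks is mixed.

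Between 2 and 7 weeks the division programme fell in control pups, while Ccne2 rose. At an adjusted p under 0.05 in edgeR's quasi-likelihood test, 37 of the 42 genes were lower at 7 weeks, where 34.4% of all genes tested were, and 2 were higher (Ccne2, and Wee1, which was not called with library totals alone), where 27.1% of all genes were. In either direction that is 39 genes (61.5% of all genes), and 41 had an unadjusted p under 0.05 (65.2%). The median log2 fold change of the list was −1.57, beside −0.13 over all genes. In 28 genes every 7-week control library lay below every 2-week control library (23.2% of all genes), and in 2 every one lay above (22.5%). The 3 genes that did not pass were the licensing genes Mcm2, Mcm10 and Cdt1. Without control library 3 at 7 weeks 39 genes were again called (60.4% of all genes), with a median of −1.69 beside −0.15 over all genes. Without control library 5 at 2 weeks 41 were called, 39 lower and 2 higher (69.9% of all genes), with a median of −1.48 beside −0.09 over all genes.

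The age and the dam comparisons use the same 20 libraries, so they are not independent of each other. The age comparison in periodontitis pups called 32 genes lower, where 35.7% of all genes were, and 1 higher (Ccne2), where 30.4% were. In either direction that is 33 genes (66.1% of all genes), and 34 had an unadjusted p under 0.05 (69.2%). The median was −1.23, beside −0.11 over all genes. The 7-week libraries lay wholly below the 2-week libraries in 12 genes (28.3% of all genes), and wholly above in 0 (24.9%). Without periodontitis library 5, 36 of the 42 genes were called, 35 lower and 1 higher, where 68.7% of all genes were, and the median was −1.74, beside −0.16 over all genes. The 9 genes that did not pass with all libraries were Mcm2, Mcm10, Cdt1, Pcna, Rrm2, Wee1, Birc5, Cenpe and Cenpf. The number called depends on the scaling. With library totals alone 42 of the 42 were called in periodontitis pups, 41 lower and 1 higher, where 71.3% of all genes were called and the median of all genes was −0.88. In control pups 41 were then called, 40 lower and 1 higher (66.3% of all genes, median of all genes −0.79), with Mcm2, Mcm10 and Cdt1 passing and Wee1 not. Whether the change with age differed between the 2 kinds of dam was tested as an interaction, which called 0 of the 42 genes (0.0229% of all genes called, 4 of the list and 8.8% of all genes at an unadjusted p under 0.05, and 0 of the list in DESeq2).

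**Figure D2:**
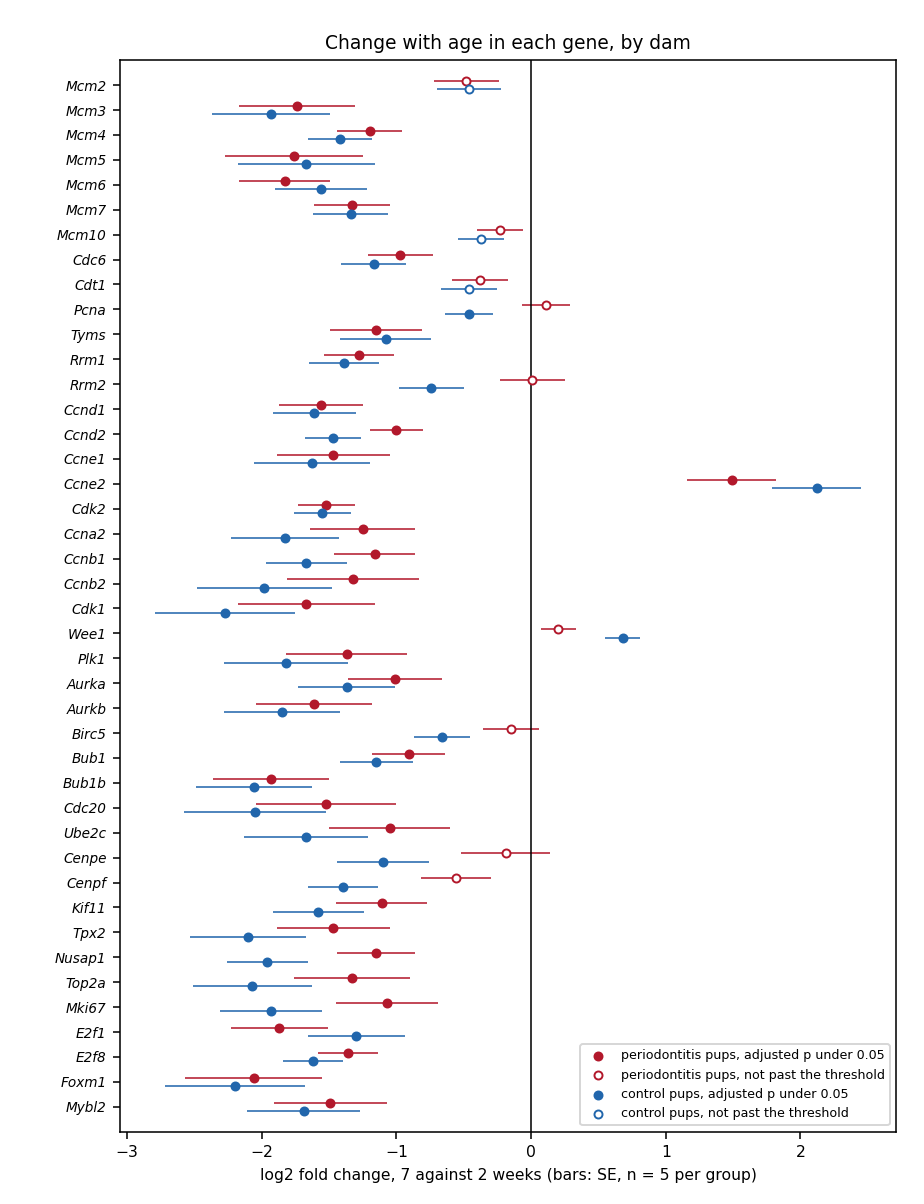
The log2 fold change of 7 against 2 weeks is plotted for each of the 42 genes with its SE, in periodontitis pups (red, upper) and control pups (blue, lower), 5 libraries a group. Filled points passed an adjusted p under 0.05. Nearly all points lie left of 0, and Ccne2 lies farthest right at 1.49 in periodontitis pups and 2.12 in control pups.

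Among the 9 licensing genes, 6 fell with age in either kind of pup. Those were Mcm3, Mcm4, Mcm5, Mcm6 and Mcm7, subunits of the helicase ring, and the loader Cdc6. Mcm6 (chr1:128331590-128359664 in GRCm38, as for each position below) had 15.1, 12.4, 10.5, 10.3 and 48.2 CPM in periodontitis pups at 7 weeks, against 77.9, 71.7, 72.1, 64.1 and 59.3 CPM in periodontitis pups at 2 weeks. All 5 of the 7-week values were below the 2-week values, with library 5 far above its group, and the log2 fold change was −1.83 ± 0.34 (SE, edgeR adjusted p = 0.000125). In control pups Mcm6 had 19.4, 15.4, 36.2, 20.5 and 16.6 CPM at 7 weeks, against 65.9, 62.1, 65.1, 64.5 and 61.7 CPM at 2 weeks, again without overlap (−1.56 ± 0.34, edgeR adjusted p = 0.000628). Mcm4 fell by 1.2 ± 0.24 in periodontitis pups and by 1.42 ± 0.24 in control pups on the log2 scale (edgeR adjusted p = 0.000213 and 5.96e-05). The ring subunit Mcm2 gave −0.48 ± 0.24 in periodontitis pups and −0.46 ± 0.24 in control pups (edgeR adjusted p = 0.0898 and 0.107). Mcm10, which helps start the helicase, gave −0.23 and −0.37, and Cdt1 gave −0.38 and −0.46, with adjusted p between 0.0578 and 0.229. In control pups these 3 passed once control library 5 at 2 weeks, their lowest control library of that age, was left out.

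Of the 4 DNA synthesis genes, the levels of the clamp and of the small subunit of ribonucleotide reductase changed least under TMM scaling. Pcna had 85.4, 89.6, 103, 106 and 118 CPM in periodontitis pups at 7 weeks, 84.9, 94, 110, 93.8 and 92.5 CPM in control pups at 7 weeks, 110, 100, 96.4, 79.4 and 79.5 CPM in periodontitis pups at 2 weeks and 117, 113, 99.5, 108 and 218 CPM in control pups at 2 weeks. The 4 groups overlap apart from the last library. Pcna gave 0.11 ± 0.18 with age in periodontitis pups (edgeR adjusted p = 0.619). In control pups it gave −0.46 ± 0.18 (adjusted p = 0.0328), which was −0.21 with an adjusted p of 0.115 without control library 5 at 2 weeks. Over leaving out each control library in turn, 5 of 10 fits did not call it. Rrm2, the small subunit, gave 0.01 ± 0.24 in periodontitis pups and −0.74 ± 0.24 in control pups (edgeR adjusted p = 0.962 and 0.012). With library totals alone Pcna and Rrm2 were lower at 7 weeks in periodontitis pups too, at −0.66 and −0.7 (adjusted p = 0.00119 and 0.0304). Rrm1, the large subunit, fell by 1.28 ± 0.26 in periodontitis pups and by 1.39 ± 0.26 in control pups (adjusted p = 0.000292 and 0.00017). Tyms, which makes thymidylate, fell by 1.15 in periodontitis pups and by 1.08 in control pups. The ratio of Rrm1 to Rrm2 per kb, chosen after the values were seen, was 0.249 to 0.363 at 7 weeks against 0.663 to 0.813 at 2 weeks in periodontitis pups. In control pups it was 0.221 to 0.327 at 7 weeks against 0.342 to 0.566 at 2 weeks.

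The 5 genes of the G1/S kinases split in their direction. Cdk2, the kinase of the E-type cyclins (chr10:128697939-128705031), had the smallest p of the list with age in either kind of pup. It had 4.87, 4.71, 6.13, 7.35 and 9.66 CPM in periodontitis pups at 7 weeks, against 18.3, 20.1, 19.3, 17.9 and 18.5 CPM at 2 weeks, and fell by 1.52 ± 0.21 on the log2 scale (edgeR adjusted p = 4.25e-06). Control pups had 6.77, 4.81, 7.28, 6.07 and 4.91 CPM at 7 weeks, against 19.6, 18.1, 20.7, 18.8 and 10.1 CPM at 2 weeks (−1.55 ± 0.21, edgeR adjusted p = 5.79e-06). The groups did not overlap in either comparison. The early G1 cyclin Ccnd1 had 10.4, 8.39, 8.66, 10.2 and 32.2 CPM in periodontitis pups and 15.4, 10.3, 23, 11 and 10.9 CPM in control pups at 7 weeks. At 2 weeks it had 50.4, 44.5, 40.3, 37.7 and 34.4 CPM in periodontitis pups and 43.8, 47.2, 40.3, 46.8 and 38 CPM in control pups. All 10 values at 2 weeks exceed all 10 at 7 weeks. Ccnd1 fell by 1.56 ± 0.31 in periodontitis pups and by 1.61 ± 0.31 in control pups (edgeR adjusted p = 0.000242 and 0.00023). Ccnd2, its close relative, fell by 1 ± 0.2 and by 1.47 ± 0.21 (adjusted p = 0.000282 and 8.66e-06).

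The 2 E-type cyclins, which bind the same kinase at the entry to S phase, moved in opposite directions. Ccne2 (chr4:11191351-11204779, plus strand) had 18.2, 26.3, 17.2, 29 and 5.5 CPM in periodontitis pups at 7 weeks, against 7.12, 6.18, 7.83, 7.2 and 5.9 CPM at 2 weeks. Libraries 1 to 4 at 7 weeks were above every 2-week library, and library 5 was below them all. Ccne2 rose with age by 1.49 ± 0.33 in periodontitis pups (2.8-fold, edgeR adjusted p = 0.000576). In control pups it had 28.3, 53.6, 21.1, 38.2 and 25.7 CPM at 7 weeks, against 6.18, 7.31, 6.73, 6.65 and 11.9 CPM at 2 weeks, without overlap, and rose by 2.12 ± 0.33 (4.34-fold, adjusted p = 3e-05). Ccne1 (chr7:38097984-38107534, minus strand) had 1.14, 0.921, 0.866, 0.561 and 3.73 CPM in periodontitis pups at 7 weeks, against 3.94, 3.71, 5.24, 4.21 and 3.51 CPM at 2 weeks. It fell by 1.47 ± 0.42 in periodontitis pups and by 1.63 ± 0.43 in control pups (edgeR adjusted p = 0.00468 and 0.00278). Per kb, the ratio of Ccne1 to Ccne2, chosen after the values were seen, was 0.0254 to 0.0822 in periodontitis libraries 1 to 4 at 7 weeks and 0.891 in library 5, against 0.727 to 0.878 at 2 weeks. In control pups it was 0.0168 to 0.16 at 7 weeks, against 0.266 to 0.859 at 2 weeks. Without TMM scaling the rise of Ccne2 was 0.63 in periodontitis pups and 1.47 in control pups, and it was still called in both (edgeR adjusted p = 0.0432 and 0.000136).

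**Figure D3:**
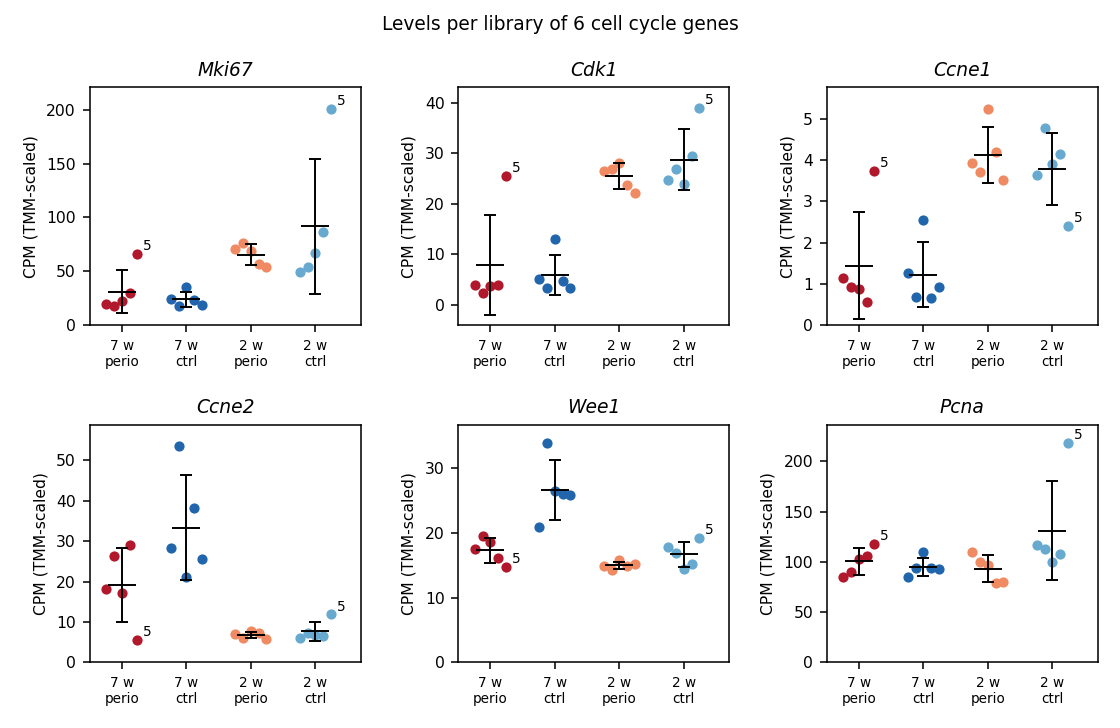
CPM of 6 genes in each library of the 4 groups, with black bars for the mean and SD of 5 libraries. Library 5 of 7-week periodontitis pups and of 2-week control pups is marked 5. Mki67, Cdk1 and Ccne1 are low at 7 weeks apart from periodontitis library 5, Ccne2 is high at 7 weeks apart from that library, Wee1 is highest in 7-week controls and Pcna is level apart from the marked control library.

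Of the 5 genes of the G2/M kinases, 4 fell with age and the other, Wee1, did not. Cdk1, the mitotic kinase (chr10:69335146-69352938), had 4.01, 2.25, 3.78, 3.99 and 25.5 CPM in periodontitis pups at 7 weeks, against 26.6, 27, 28.2, 23.7 and 22.1 CPM at 2 weeks. Library 5 lay within the 2-week range and the other 4 far below it, and Cdk1 fell by 1.67 ± 0.51 on the log2 scale (edgeR adjusted p = 0.00697). Control pups had 5.11, 3.38, 13, 4.79 and 3.42 CPM at 7 weeks, against 24.7, 26.9, 24, 29.4 and 39 CPM at 2 weeks, and Cdk1 fell by 2.27 ± 0.52 without overlap (adjusted p = 0.000933). The mitotic cyclin Ccnb1 fell by 1.16 ± 0.3 in periodontitis pups and by 1.67 ± 0.3 in control pups (edgeR adjusted p = 0.00204 and 0.000107). In the same order, Ccna2 gave −1.25 and −1.83 and Ccnb2 −1.32 and −1.98, and both were called lower. Ccnb2 in periodontitis pups lost its call in 4 of 10 fits that left out 1 library and with the compared groups alone (−1.31, edgeR adjusted p = 0.0573). Wee1, the kinase that holds Cdk1 inactive (chr7:110122046-110143286), had 20.9, 33.9, 26.5, 26 and 25.8 CPM in control pups at 7 weeks, against 17.8, 16.8, 14.4, 15.2 and 19.2 CPM at 2 weeks. The groups did not overlap, and it rose by 0.68 ± 0.13 (edgeR adjusted p = 0.000205). In periodontitis pups Wee1 had 17.5, 19.5, 18.5, 16.1 and 14.7 CPM at 7 weeks, against 14.8, 14.3, 15.8, 14.8 and 15.2 CPM at 2 weeks, which overlap (0.2 ± 0.13, edgeR adjusted p = 0.174). The direction for Wee1 depends on the scaling. With library totals alone it gave 0.01 in control pups (adjusted p = 0.934) and −0.6 in periodontitis pups (adjusted p = 0.00066), where the median of all genes lay at −0.79 and −0.88.

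All 8 mitotic regulators fell with age in control pups, by 0.66 to 2.06 on the log2 scale, and 7 of them in periodontitis pups, by 0.91 to 1.93. They include the kinases Plk1, Aurka and Aurkb, the checkpoint proteins Bub1 and Bub1b, and Cdc20 and Ube2c, which bring about destruction of the mitotic cyclins. Bub1b fell most of them, by 1.93 ± 0.43 in periodontitis pups and by 2.06 ± 0.43 in control pups (edgeR adjusted p = 0.000572 and 0.000403). Birc5, a subunit of the complex that carries Aurkb, fell by 0.66 in control pups (adjusted p = 0.00964) and gave −0.15 in periodontitis pups (adjusted p = 0.522). Ube2c was near the threshold in periodontitis pups (−1.05, adjusted p = 0.0463) and missed it in 7 of 10 fits that left out 1 library of that comparison, and Aurka missed it in 2 of 10.

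Of the 7 spindle and chromosome genes, 7 fell in control pups and 5 in periodontitis pups. Mki67 (chr7:135689784-135716361), which coats mitotic chromosomes and is the usual marker of dividing cells, had 19.3, 17.8, 22.2, 29.8 and 66.2 CPM in periodontitis pups at 7 weeks, against 70.4, 76.6, 69.1, 56.6 and 54.4 CPM at 2 weeks. Only library 5 reached the 2-week range, and Mki67 fell by 1.07 ± 0.38 on the log2 scale (edgeR adjusted p = 0.0169). In control pups Mki67 had 24.2, 18, 35.6, 23.4 and 18.6 CPM at 7 weeks, against 49, 54.1, 67.3, 86.9 and 201 CPM at 2 weeks. These did not overlap, and it fell by 1.93 ± 0.38 (adjusted p = 0.000272). Nusap1, which bundles spindle microtubules, fell by 1.15 ± 0.29 in periodontitis pups and by 1.96 ± 0.3 in control pups (edgeR adjusted p = 0.00208 and 2.31e-05). Also lower in periodontitis and in control pups were Top2a, the enzyme that untangles DNA (−1.33 and −2.07), the spindle assembly factor Tpx2 (−1.47 and −2.1) and the spindle motor Kif11 (−1.11 and −1.58). The kinetochore protein Cenpf fell by 1.4 ± 0.26 in control pups (adjusted p = 0.000167) and gave −0.56 ± 0.26 in periodontitis pups (adjusted p = 0.0638). The kinetochore motor Cenpe fell by 1.1 in control pups and gave −0.19 in periodontitis pups (adjusted p = 0.631). Of periodontitis libraries at 7 weeks, both library 4 and library 5 were high for Cenpe, at 14.7 and 13.8 CPM, against 4.32, 5.73 and 9.56 CPM in libraries 1 to 3.

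All 4 transcription factors fell with age in either kind of pup. E2f8, a repressor that is itself switched on in S phase (chr7:48866429-48881596), had 5.03, 7.42, 8.83, 8.04 and 12.6 CPM in periodontitis pups at 7 weeks, against 21.7, 20.9, 24.4, 20.8 and 20.2 CPM at 2 weeks. It fell by 1.36 ± 0.22 on the log2 scale without overlap (edgeR adjusted p = 2.22e-05). Control pups had 7.43, 7.5, 6.26, 7.16 and 5.92 CPM at 7 weeks, against 17.6, 17.5, 20, 16.5 and 34.5 CPM at 2 weeks, and E2f8 fell by 1.62 ± 0.22 (adjusted p = 6.01e-06). The activator E2f1 fell by 1.87 ± 0.36 in periodontitis pups and by 1.3 ± 0.36 in control pups (edgeR adjusted p = 0.000164 and 0.00378). Foxm1 gave −2.06 ± 0.51 in periodontitis pups and −2.2 ± 0.52 in control pups, and Mybl2 gave −1.49 ± 0.42 and −1.69 ± 0.42, all called lower.

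A wider list of 130 cell cycle genes outside the 42, of which 129 were tested, moved mostly the same way for replication and mitosis. Of all genes, 35.7% were lower and 30.4% higher in periodontitis pups, and 34.4% lower and 27.1% higher in control pups. In periodontitis pups 28 of 42 further replication genes and 37 of 48 further mitosis genes were lower at 7 weeks, and 5 and 2 were higher. In control pups 33 of the 42 and 44 of the 48 were lower, and 1 in each group was higher. Of the 14 tested inhibitors, 10 were higher and 1 lower in periodontitis pups, and 6 were higher and 1 lower in control pups, where the other 7 did not pass. With library totals alone the inhibitors called were 6 higher and 5 lower in periodontitis pups and 4 higher and 3 lower in control pups. The inhibitor Cdkn1a (p21) rose by 2.28 ± 0.19 in periodontitis pups and by 1.6 ± 0.19 in control pups (edgeR adjusted p = 1.83e-08 and 1.43e-06). Ccng2 and Tob1, which also slow division, rose by 2.6 ± 0.3 and 2.65 ± 0.34 in periodontitis pups. Cdkn1c (p57), an imprinted inhibitor, fell by 2.76 ± 0.36 in periodontitis pups. Mycn, a transcription factor of the Myc family, fell by 3.55 ± 0.44 in periodontitis pups and by 2.92 ± 0.43 in control pups (adjusted p = 1.24e-06 and 1.54e-05). Skp2, which targets p27 for destruction, fell in control pups (−1.4 ± 0.19), as did the origin-firing kinase Cdc7 (−1.91 ± 0.27), the repair protein Brca2 (−1.73 ± 0.24) and the cytokinesis motor Kif23 (−1.85 ± 0.28).

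Markers of the crypt and villus moved beside these genes. At 7 against 2 weeks, 5 of 6 stem cell markers were lower in either kind of pup (median −1.4 in periodontitis pups and −1.95 in control pups), and 5 and 6 of 6 enterocyte markers were higher (median 1.41 and 1.35). Stem cell markers summed to 282 to 482 CPM in periodontitis pups at 7 weeks against 469 to 608 CPM at 2 weeks, and to 273 to 680 CPM in control pups at 7 weeks against 538 to 683 CPM at 2 weeks, with 0 of the 6 at 0. Most of each sum was Olfm4. It had 242 to 397 CPM at 7 weeks against 317 to 466 CPM at 2 weeks in periodontitis pups. In control pups Olfm4 had 229 to 628 CPM against 391 to 532 CPM. Most other lists moved as well. In periodontitis and in control pups 6 and 6 of 6 fibroblast markers (median −2.4 and −2.81), 5 and 5 of 5 endothelial markers (−2.47 and −2.13), 6 and 6 of 6 enteric neuron and glia markers (−2.71 and −2.66) and 5 and 5 of 6 smooth muscle markers (−1.2 and −1.15) were lower. Pancreas markers, all 6 called lower in either kind of pup, summed to 5.5 to 11.5 CPM at 7 weeks against 123 to 1250 CPM at 2 weeks in periodontitis pups, and to 5.74 to 10.2 CPM against 166 to 938 CPM in control pups. Of 6 Paneth cell markers 1 was lower in periodontitis pups and 3 in control pups. Higher were 4 and 5 of 6 T cell markers (median 3.08 and 3.04, with 2 lower in periodontitis pups), 4 and 5 of 6 plasma cell markers (1.78 and 2.9, with 1 lower in control pups), 4 and 4 of 6 goblet cell markers (with 1 and 2 lower) and 4 and 4 of 5 tuft cell markers. The part of cell composition in the change of the 42 genes was not tested.

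Between the 2 kinds of dam at 2 weeks, 0 of the 42 genes passed the threshold in edgeR, where 0.0286% of all genes did (0.0172% higher and 0.0115% lower), and DESeq2 also called 0, where it called 3.46% of all genes. At an unadjusted p under 0.05 there were 2 genes (4.76%), against 14.4% of all genes. The 2 genes are Rrm2, of nucleotide supply, and the clamp Pcna. The median log2 fold change of the list was −0.12, and 0.02 over all genes. Without control library 5 it was −0.09, and 0.02 over all genes, and 0 genes of the list passed (0.276% of all genes). Rrm2 had 15.6, 16.1, 13, 10.8 and 9.79 CPM in periodontitis pups, against 21.8, 18.5, 18.2, 19.3 and 30.3 CPM in control pups. Every periodontitis library was below every control library, which held for this gene alone of the 42 (3.54% of all genes), and the log2 fold change was −0.72 ± 0.24 (edgeR adjusted p = 0.169). Pcna gave −0.49 ± 0.18 (edgeR adjusted p = 0.218), and −0.23 without control library 5. E2f1 had 8, 7.52, 9.98, 7.47 and 7.22 CPM in periodontitis pups, against 7.07, 6.85, 6.57, 6.85 and 1.53 CPM in control pups, and was the 1 gene wholly above (3.71% of all genes), at 0.46 ± 0.34 (adjusted p = 0.557).

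Of the other genes with the smallest p at 2 weeks, Ccnd2, of early G1, gave −0.34 ± 0.2, Nusap1 −0.48 ± 0.29, Bub1 −0.44 ± 0.27 and Kif11 −0.45 ± 0.33 (edgeR adjusted p between 0.463 and 0.555). Mki67 gave −0.48 ± 0.37 (adjusted p = 0.568), and 0.02 without control library 5, so its direction rests on that library. By role, with TMM scaling and all libraries, 7 of 7 spindle and chromosome genes and 5 of 5 genes of the G2/M kinases had negative values, of −0.48 to −0.12 and −0.32 to −0.15, and 7 of 9 licensing genes had positive values, up to 0.22. Without control library 5, 4 of 7 spindle and chromosome genes were negative and 4 of 9 licensing genes positive. The 5 genes of the G2/M kinases were then still all negative, as were 8 of 8 mitotic regulators and 4 of 4 DNA synthesis genes. Of the 42 genes 31 were then negative, against 27 with all libraries. With library totals alone 25 of the 42 genes were positive. In periodontitis pups at 2 weeks, library 5 was the lowest of its group for 33 of the 42 genes and library 4 for 7.

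Control library 5 at 2 weeks was not low or high throughout but split the list. Mki67 was 201 CPM in it against 49 to 86.9 CPM in libraries 1 to 4, while E2f1 was 1.53 CPM against 6.57 to 7.07 CPM. Nusap1 was 1.27 above the mean of the other libraries on the log2 scale and Cenpe 1.36 above it, while Mybl2 deviated by −1.72 and Mcm5 by −1.49. The deviations went with the GC content of the longest transcript, with a Spearman's rho of −0.78 across the 42 genes and −0.67 across 17441 genes. This is across genes of 1 library, which share its depth and preparation, and is given as a description. It bears on each comparison with 2-week controls, and its part in them was not tested beyond leaving the library out. In the other groups, rho across the 42 genes taken the same way ran from −0.47 to 0.44. Those were periodontitis library 4 and control library 3, both at 7 weeks.

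**Figure D4:**
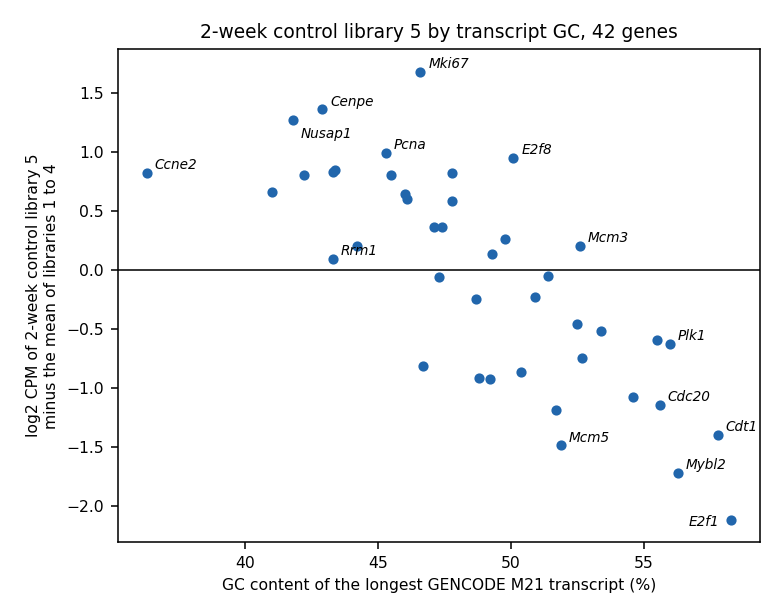
Each point is 1 of the 42 genes. The x axis is the GC content of its longest transcript in percent, and the y axis is log2 CPM of 2-week control library 5 minus the mean of 2-week control libraries 1 to 4. Genes low in GC such as Cenpe and Nusap1 lie above 0, and genes high in GC such as E2f1 and Mybl2 lie below.

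Between the 2 kinds of dam at 7 weeks, 0 of the 42 genes passed in edgeR, where 0.0115% of all genes did, and 3 did at an unadjusted p under 0.05 (7.14%, against 3.33% of all genes). The smallest p belonged to Wee1, the brake on Cdk1. It had 14.7 to 19.5 CPM in periodontitis pups, against 20.9 to 33.9 CPM in control pups. Every periodontitis library was below every control library, which held for 1 of the 42 genes and 0.281% of all genes. The log2 fold change was −0.62 ± 0.13 (unadjusted p = 0.000113, edgeR adjusted p = 0.198). DESeq2 called 1 of the 42, this gene, with an adjusted p of 0.00413 (0.144% of all genes called), as did edgeR without the 2 libraries that stood apart most (−0.56, adjusted p = 0.0467, 0.181% of all genes called). Over the other edgeR settings with all libraries, and over leaving out 1 library at a time, it was not called. The log2 fold change for Wee1 at 2 weeks was −0.15 ± 0.13, and the difference between the ages was −0.47 ± 0.18 (adjusted p = 0.521).

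Ccne2 gave −0.8 ± 0.32 at 7 weeks (edgeR adjusted p = 1), and −0.56 without periodontitis library 5, where it is lowest. Cenpf gave 0.62 ± 0.26, with 4.56, 4.91, 6.89, 13 and 11.9 CPM in periodontitis pups against 5.11, 5.39, 5.28, 6.34 and 4.67 CPM in control pups. Its high values come from periodontitis libraries 4 and 5. Cenpe gave 0.59 ± 0.34, E2f8 0.29 ± 0.22, Tpx2 0.5 ± 0.42, Cdc6 0.29 ± 0.25, Birc5 0.25 ± 0.21 and Mki67 0.38 ± 0.37, each with an edgeR adjusted p of 1.

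The direction of the list at 7 weeks rests on periodontitis library 5. With it 36 of the 42 genes had positive values with a median of 0.21, and without it 34 had negative values with a median of −0.47. All genes tested had a median of 0.02 with it and −0.01 without it. In the smaller set 15 genes of the list had an unadjusted p under 0.05 (9.37% of all genes), and 0 passed the adjusted threshold (0.0844% of all genes). Without control library 3 at 7 weeks, the highest of its group for most genes, 39 had positive values and 3 negative, with a median of 0.39 beside 0.03 over all genes, and 0 passed. The median difference between ages was 0.24 with all libraries and 0.55 without that library. Cdk1 gave 0.42 with periodontitis library 5 and −0.76 without it, Mcm5 0 and −1.03, Foxm1 0.21 and −0.85, and Tpx2 0.5 and −0.34. Wee1 at −0.62 and −0.57, Ccne2, Cenpf at 0.62 and 0.45 and Cenpe at 0.59 and 0.42 kept their sign.

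**Figure D5:**
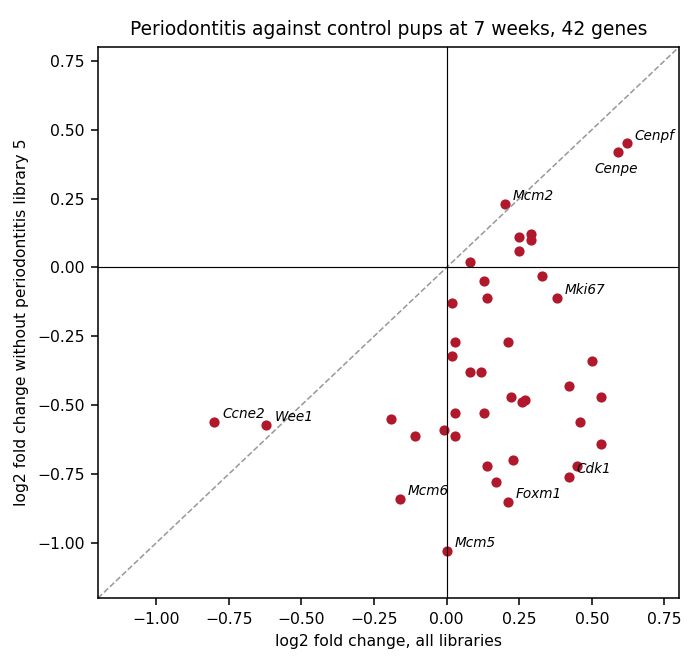
Each point is 1 of the 42 genes. The x axis is the log2 fold change of periodontitis against control pups at 7 weeks with all libraries, and the y axis is the same without periodontitis library 5. The dashed line marks equal values. Most points lie right of 0 and below 0, Wee1 lies near the line at −0.62 and −0.57, and Cenpf and Cenpe stay positive.

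Of the genes of the list, 4 have pseudogene copies named by the gene's symbol plus -ps with rows of their own in the table, 5 in all. Copies under other names were not searched for. Reads shared between a gene and its copy could have been assigned to either. Their counts were 3 to 37 for Ccnb2-ps, where Ccnb2 had at least 49, 4 to 29 for Pcna-ps2, where Pcna had at least 1694, and at most 8 for Ccnb1-ps, Pcna-ps1 and Tyms-ps. Among these, Ccnb2 is the gene whose lowest count lies nearest the highest count of its copy. The counts of the copies were not split by age.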

How the data were processed

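RNA was extracted with a total RNA kit and sequenced after polyA enrichment, per the labels' protocols. The submitters' processing notes name cutadapt 4.8, FastQC 0.11.8, STAR 2.7.8a and RSEM 1.3.3 and the builds GRCh38 and GRCm38. The annotation release, the strandedness and which build served these mouse samples are not given in the sources used here. The deposited values are expected counts per gene, made by the authors with RSEM to judge by these notes, and rounding to whole counts changed 0 values. Gene IDs were matched to GENCODE M21 (55141 matched, 346 not) for coordinates and exon length, and 4 lines that name no mouse gene held 0 counts.

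The members and lists were chosen with earlier results of these data known. In R 4.3.3, edgeR 4.0.16 (filterByExpr, TMM, robust quasi-likelihood test, 16 residual degrees of freedom, limma 3.58.1) fitted all 4 groups at once over 17464 genes, with Benjamini-Hochberg adjustment over all of them. The filter removed at most 0.0838% of a library's counts. The SE was taken from the F statistic as the absolute fold change (log2) over its root, and log2 CPM used a prior count of 2. In each comparison the genes with the smallest p, up to 8, were named, with Mki67, Pcna, Ccnd1 and Cdk1, and up to 6 genes of the wider list, of which 1 is not reported here. Other genes named by role were chosen after their values were seen. The code was tested on simulated data. Alternatives were DESeq2 1.42.0 and its size factors, other filters, the compared groups alone, a replicate block and left-out libraries. Library totals without TMM were added after the data were seen. Replicate numbers were checked for pairing, which the check could not settle, and the main fit did not pair the samples.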

Additional observations from a re-analysis of the deposited data

Results flagged for a closer look

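Within each group of 5 libraries, a library was counted as far from the others for a gene when its gap to the nearest library exceeded 0.71 of the range of the group. For independent, normally distributed values chance alone gives this in about 1 in 20 groups. Over 168 combinations of gene and group it occurred 53 times. The rule was applied to CPM without logs, and the genes share the same 20 libraries. The number of times therefore cannot be set against that rate.

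Periodontitis library 5 at 7 weeks was far above its group in 29 of the 42 genes. Control library 3 at 7 weeks was far above its group in 7. Control library 5 at 2 weeks was far above its group in 8 genes and far below it in 7. Among periodontitis pups at 2 weeks, library 3 was far above in 1 gene, E2f1 at 9.98 CPM, and library 5 was far below in 1 gene, Ccnd2 at 80.6 CPM. What sets these libraries apart was not tested.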

How the results depend on the processing

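Of the named genes' values under the alternatives, 2377 kept their direction and, where an adjusted p was given, their side of the threshold. Another 30 passed it that had not, 25 no longer passed it and 47 changed sign. With age DESeq2 called 37 genes in control pups (64.3% of all genes) and 30 in periodontitis pups (69.1%). Of the 39 and 33 main calls, 36 and 30 recurred there and 0 were lost. The others had no adjusted p in DESeq2 and are counted as kept. The calls that were lost were of the age comparison. Pcna in control pups lost its call with the compared groups alone (−0.5, adjusted p = 0.0644), with the replicate block (−0.43, adjusted p = 0.0579) and without both control library 5 at 2 weeks and periodontitis library 5 at 7 weeks (−0.23, adjusted p = 0.054), and Wee1 in control pups lost it with library totals. In periodontitis pups Ccnb2 lost it with the compared groups alone (−1.31, adjusted p = 0.0573) and Ube2c lost it there (−1.05, adjusted p = 0.0903) and with no filter on low counts (−1.1, adjusted p = 0.0688). Pcna, Ccnb2, Ube2c and Aurka lost it when single libraries were left out. With library totals alone the list median between dams at 2 weeks was 0.02, and the age medians were −1.91 in periodontitis pups and −2.21 in control pups. Without periodontitis library 5 at 7 weeks, or without it and control library 5 at 2 weeks, the median between dams at 7 weeks was −0.47, the age median in periodontitis pups −1.74 and the median difference between ages −0.28 or −0.31. DESeq2 called 1 gene between dams at 7 weeks, as did edgeR without both libraries. Mki67 between dams at 2 weeks was 0.02 without control library 5 or without both. At 7 weeks Tpx2 was −0.34 without periodontitis library 5 and −0.35 without both, and Mki67 was −0.11 in each. Mcm5 at 7 weeks was −0.01 in DESeq2 and with its size factors, −0.12 with the replicate block and −1.04 without both, where Cdk1 was −0.77 and Foxm1 −0.86. With library totals Ccnd1 between dams was 0.07 at 2 weeks and 0.1 at 7 weeks, and Cdk1 0.01 at 2 weeks. With age in periodontitis pups, library totals gave −0.66 for Pcna, −0.6 for Wee1 and −0.7 for Rrm2. Rrm2 was −0.05 with no filter, −0.02 with the replicate block and −0.3 without both. The difference between ages without both was −0.13 for Mki67, −0.49 for Ccnd1 and −0.72 for Cdk1, and −0.02 for Ccnd1 with the replicate block. The cause was not tested.

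Over leaving out each library in turn, 0 genes of the list were called between dams at either age or for the difference between ages. Their medians ran from −0.15 to −0.06 at 2 weeks, from −0.47 to 0.39 at 7 weeks and from −0.28 to 0.55 for the difference. The age comparison called 30 to 36 genes in periodontitis pups (median −1.74 to −1.07) and 38 to 41 in control pups (median −1.69 to −1.47). Mki67 ran from −0.64 to 0.02 at 2 weeks and from −0.11 to 0.56 at 7 weeks. At 7 weeks Tpx2 ran from −0.34 to 0.87, Mcm5 from −1.03 to 0.42, Foxm1 from −0.85 to 0.61, Cdk1 from −0.76 to 0.93 and Ccnd1 from −0.59 to 0.23. Ccnd1 at 2 weeks ran from −0.14 to 0. For the difference between ages Ccnd1 ran from −0.53 to 0.29 and Cdk1 from −0.6 to 1.1, and Rrm2 with age in periodontitis pups from −0.3 to 0.12.

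After the group mean of each gene was taken out, same-numbered samples correlated between −0.4 and 0.29 across genes. Differently numbered samples were not compared, so this cannot show whether the samples were paired. With the replicate block 0 genes were called between dams at 2 weeks (median −0.1), at 7 weeks (0.1) and for the difference (0.18), 34 with age in periodontitis pups (−1.33) and 38 in control pups (−1.57). Counts of the list went down to 9 in a library, which limits its rarest genes at 7 weeks.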
